A study of Mus musculus with 13 samples.

Results

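The genes described here are 6 that encode parts of the machinery that fills the blastocoel, the fluid cavity of the mouse blastocyst: the Na/K-ATPase beta subunits Atp1b1 and Atp1b3 and the water channels Aqp3, Aqp8, Aqp9 and Aqp11. They were chosen by name, and every probe with 1 of these symbols was taken, which gave 8 probes of 25697. The 6 genes stand among 16593 symbols on the array, of which 9787 were tested. RNA from pools of embryos, oocytes or cumulus cells was hybridized to 13 Illumina mouse BeadChips.

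In the preimplantation embryo the outer cells form an epithelium, the trophectoderm. Its Na/K-ATPase, built of a catalytic alpha and a glycosylated beta subunit, exports sodium across the basolateral membrane, and water follows the salt through aquaporins. Tight junctions between the cells keep the fluid in. FXYD proteins are small membrane proteins that bind the pump and tune its kinetics. Aquaporins such as AQP3 and AQP9 also pass glycerol.

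SCNT Aph+ embryos had 1 array, SCNT Aph- 3, fertilized Aph+ 3, fertilized Aph- 3, cumulus cells 2 and MII oocytes 1. SCNT embryos are enucleated oocytes that received a cumulus cell nucleus. Aph+ embryos lived in aphidicolin (Aph), an inhibitor of replicative DNA polymerases, at 2 µg/ml, added at 6 hours after activation and kept until collection at 96 hours, and they stay at the 1-cell stage, whereas Aph- embryos were left to divide and were collected whatever stage they had reached. The methods name oocytes of C3H/HeN females aged 6 to 8 weeks, with C57Bl/6J donors of nuclei or sperm aged 10 weeks and fertilization by sperm injection (ICSI), while the sample labels name IVF and the strain cross B6C3F1 for the oocytes and cumulus cells. Array 1 of an embryo group carries no time in its label, array 2 carries 96 h and array 3 the word blastocyst. The lone SCNT Aph+ array carries the sample type blastocyst, and its data column is named for a blastocyst sample. The methods give 3 replicates for SCNT and fertilized embryos with and without Aph, while SCNT Aph+ embryos have 1 array here. The arrays of an embryo group were taken as its replicates. Since no source tells whether arrays of a group are separate cultures, p-values cover only the spread among these arrays, which may be technical.

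The mean deposited intensity per array was 89.8 for SCNT Aph+, 184 to 313 for SCNT Aph-, 116 to 129 for fertilized Aph+, 316 to 374 for fertilized Aph-, 145 to 465 for cumulus cells and 289 for oocytes. Between 5793 and 9715 probes per array were detected, which means a detection p, the rank of the probe among the negative controls, under 0.01. Values below are normalized intensities on the log2 scale, which give every array the same distribution. They thus state a probe's standing among the probes of its array and not an amount per embryo. Arrays of fertilized Aph+ embryos correlated with each other at 0.845 to 0.851 over all genes tested, lower than the 0.971 to 0.987 within the Aph- groups. The tissue labels were set against marker lists. Oocyte markers, 12 tested, summed to 33334 on the SCNT Aph+ array, to 18179 to 26010 in fertilized Aph+ embryos, to at most 805 in the Aph- embryos and cumulus cells and to 36819 in the oocytes. Single markers did not all follow these sums. Under the calling rule given below, fertilized Aph+ embryos had 4 of the 12 below the oocytes and 1 above. Over all genes 21.9% were below and 18.4% above. For SCNT Aph+ these counts were 3 and 1, where 16.4% of all genes were below and 16.8% above. Mos, at 11.59 in the oocytes, went undetected on all Aph+ arrays. Relative to its oocyte level, Dazl stood at -4.50 (fertilized Aph+) and -4.96 (SCNT Aph+). Cumulus markers, 13 tested, summed to 5425 on the SCNT Aph+ array, of which 11 were detected, close to the 5727 to 5861 in cumulus cells and above the 351 to 993 in fertilized Aph+ embryos, and Cyp11a1, which starts steroid synthesis in cumulus cells, was at 9.73 on the SCNT Aph+ array, at 9.61 on average in cumulus cells and at 6.29 in the oocytes. Trophectoderm markers, 7 tested, summed to 1331 on the SCNT Aph+ array against 21647 to 26342 for SCNT Aph-, and to 1744 to 2492 for fertilized Aph+ against 23558 to 25436 for fertilized Aph-. They summed to 6734 in the oocytes, where Tfap2c was at 12.70. Tfap2c was at 7.85 on the SCNT Aph+ array and averaged 9.79 in fertilized Aph+ embryos. In each Aph+ group 4 of the 7 were called above their oocyte level and 1, Tfap2c, below it. The background is that given with the oocyte markers, 18.4% above and 21.9% below for fertilized Aph+. For SCNT Aph+ it is 16.8% above and 16.4% below. In such pooled RNA, fewer cells of a type and less RNA per cell cannot be told apart.

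Set against fertilized Aph- embryos, the fertilized Aph+ embryos had lower Atp1b1 and Aqp8 and higher Aqp9 and Aqp11, while Aqp3 and Atp1b3 did not pass the test. A gene was called at an adjusted p under 0.05 in limma's moderated test, and against the oocyte only when it also differed at least 2-fold. By this rule 2 of the 6 genes were higher and 2 lower, where 19.1% of all genes were higher and 25.1% lower. In SCNT embryos 2 of the 6, Aqp3 and Aqp9, were lower under Aph, where 14.7% of all genes were lower and 13.7% higher. The median difference of the 6 genes was -1.07 in fertilized and -1.10 in SCNT embryos, beside medians over all genes of -0.03 and -0.10. Counts of 2 of 6 thus stand beside background shares that are high themselves. None of the 6 was higher under Aph in SCNT embryos by limma's adjusted p, and 1, Atp1b3, at an unadjusted p under 0.05. Trophectoderm markers were lower on every Aph+ array, 7 of 7 called in both kinds of embryo, and their part in the lower genes was not tested.

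**Figure D1:**
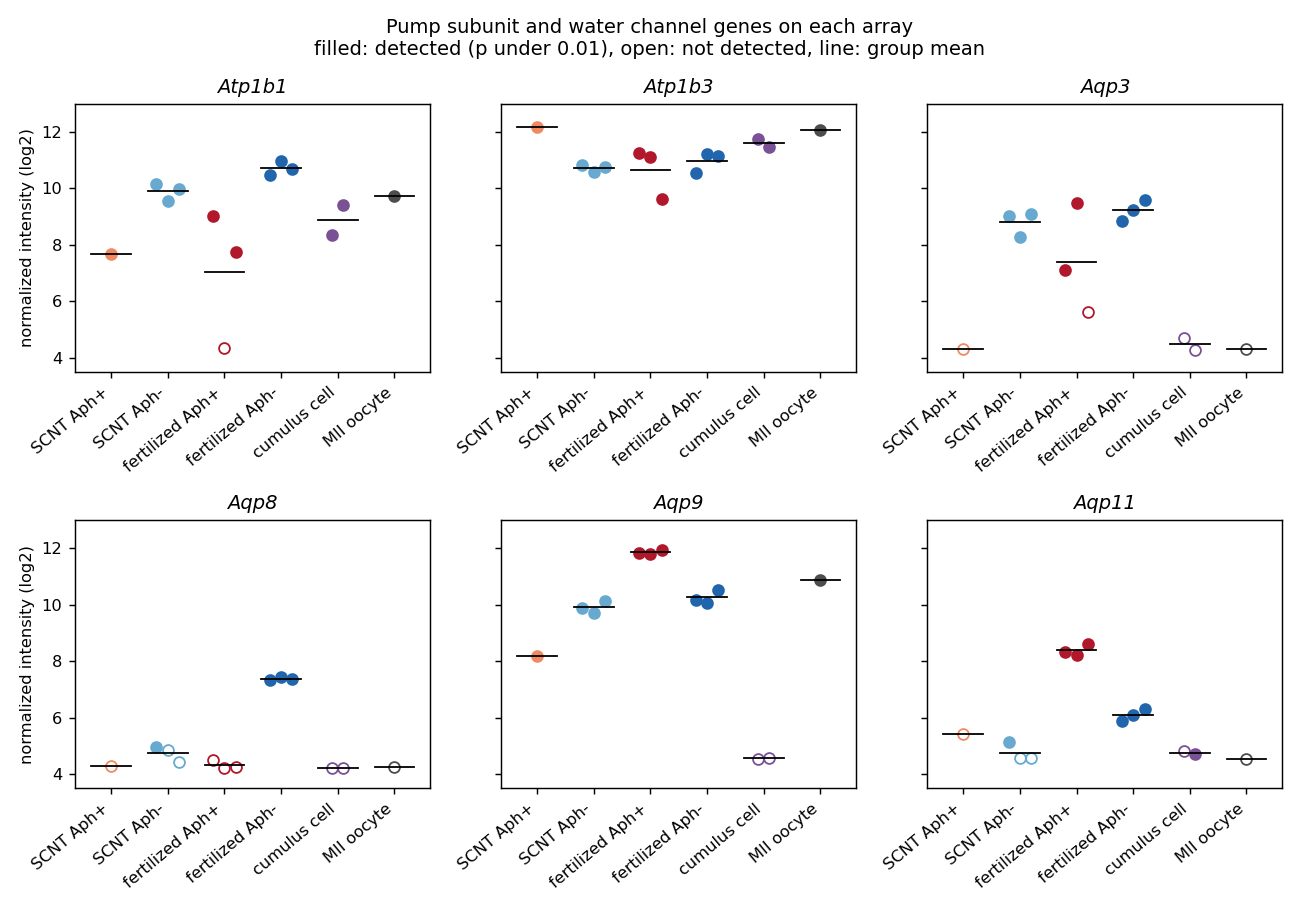
Normalized intensity (log2) of the probe used for each of the 6 genes on each of the 13 arrays, by group, with filled points where the probe was detected, open points where it was not and a line at the group mean. Aqp8 stands clear of the background only on the 3 fertilized Aph- arrays, at 7.35 to 7.43, and Aqp9 is lowest in cumulus cells, at 4.53 and 4.59.

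Atp1b1 encodes the beta 1 subunit, which carries the catalytic subunit to the cell surface. Its level was 7.68 on the SCNT Aph+ array and 10.16, 9.54 and 9.99 in SCNT Aph- embryos. It was 9.01, 4.36 and 7.75 in fertilized Aph+ embryos and 10.48, 10.97 and 10.70 in fertilized Aph- embryos. It was 8.34 and 9.41 in cumulus cells and 9.74 in the oocytes. All Aph+ arrays lay below all Aph- arrays of their kind of embryo, and the probe was detected everywhere but on fertilized Aph+ array 2 (detection p 0.306). Atp1b1 differed by -3.67 ± 0.94 (log2, SE) between fertilized Aph+ and Aph- embryos, 12.8-fold, with an adjusted p of 0.0107. Leaving out fertilized Aph+ array 2 moved the difference to -2.33, with an adjusted p of 0.00238. When only these 2 groups were fitted, the adjusted p was 0.0569. In SCNT embryos Atp1b1 differed by -2.22 ± 1.33 between the Aph+ array and the Aph- arrays, with a 95% interval of -5.21 to 0.77 and an adjusted p of 0.265. This difference was called under scaling to the 75th percentile, at -3.35 with an adjusted p of 0.00312, and when only the SCNT groups were fitted, with an adjusted p of 0.0104. The Aph effect on Atp1b1 in SCNT minus that in fertilized embryos was 1.46 ± 1.63, with an adjusted p of 0.567.

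Atp1b3 encodes the beta 3 subunit, an alternative partner of the catalytic subunit. It was detected on every array, at 12.18 on the SCNT Aph+ array, at 10.82, 10.57 and 10.77 in SCNT Aph- embryos, at 11.26, 11.10 and 9.64 in fertilized Aph+ embryos, at 10.56, 11.21 and 11.14 in fertilized Aph- embryos, at 11.74 and 11.48 in cumulus cells and at 12.06 in the oocytes. Its levels spanned a narrower range than those of the other 5 genes, and the fertilized Aph+ and Aph- arrays overlapped. The difference between fertilized Aph+ and Aph- embryos was -0.31, with a 95% interval of -1.19 to 0.58 and an adjusted p of 0.565. Scaling to the 75th percentile instead gave -1.22 with an adjusted p of 0.0135, and without fertilized Aph+ array 3 the difference was 0.21, so its direction is not settled. On the SCNT Aph+ array Atp1b3 lay above the 3 SCNT Aph- arrays by 1.46 ± 0.56, with an adjusted p of 0.0792. That difference was 0.02 under scaling to the 75th percentile and had an adjusted p of 0.010 when only the SCNT groups were fitted. The Aph effect on Atp1b3 in SCNT minus that in fertilized embryos was 1.77 ± 0.68, with an adjusted p of 0.0857, and it was called without fertilized Aph+ array 1, at 2.06, and without array 3, at 1.25, but not under scaling to the 75th percentile, at 1.25 with an adjusted p of 0.353.

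The 4 water channel genes are shown with their promoters because their levels parted ways under Aph: in fertilized Aph+ embryos Aqp8 was lower and Aqp9 and Aqp11 were higher. The sequences run from 250 bases before to 50 after the first annotated start of each gene, 5′ to 3′ on the gene's strand, from RefSeq on GRCm38.p6, at chr4:41098134-41098433 (minus strand) for Aqp3, chr7:123462044-123462343 (plus strand) for Aqp8, chr9:71163240-71163539 (minus strand) for Aqp9 and chr7:97738198-97738497 (minus strand) for Aqp11. Capitals mark every match on either strand to any of 4 motifs, which are TATAAA of the TATA box, CCAAT of the box named for it, GGAATG as the core that TEAD factors bind and TTTATNG as the core that CDX factors bind.
Aqp3: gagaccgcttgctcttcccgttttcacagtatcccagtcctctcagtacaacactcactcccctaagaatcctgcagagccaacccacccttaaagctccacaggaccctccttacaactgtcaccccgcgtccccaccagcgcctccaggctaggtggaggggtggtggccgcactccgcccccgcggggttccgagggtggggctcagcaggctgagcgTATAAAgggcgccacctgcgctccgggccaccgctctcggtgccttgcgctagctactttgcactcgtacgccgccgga
Aqp8: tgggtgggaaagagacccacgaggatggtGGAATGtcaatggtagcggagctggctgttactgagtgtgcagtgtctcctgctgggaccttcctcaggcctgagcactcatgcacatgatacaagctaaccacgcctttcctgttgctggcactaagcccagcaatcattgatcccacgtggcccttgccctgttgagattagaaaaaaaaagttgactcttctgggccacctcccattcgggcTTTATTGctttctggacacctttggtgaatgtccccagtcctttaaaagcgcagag
Aqp9: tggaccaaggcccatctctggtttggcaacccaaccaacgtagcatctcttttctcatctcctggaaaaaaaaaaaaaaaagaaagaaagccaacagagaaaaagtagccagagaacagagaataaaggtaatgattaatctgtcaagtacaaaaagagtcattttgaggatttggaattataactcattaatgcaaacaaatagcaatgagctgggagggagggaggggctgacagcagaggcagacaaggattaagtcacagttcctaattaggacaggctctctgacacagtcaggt
Aqp11: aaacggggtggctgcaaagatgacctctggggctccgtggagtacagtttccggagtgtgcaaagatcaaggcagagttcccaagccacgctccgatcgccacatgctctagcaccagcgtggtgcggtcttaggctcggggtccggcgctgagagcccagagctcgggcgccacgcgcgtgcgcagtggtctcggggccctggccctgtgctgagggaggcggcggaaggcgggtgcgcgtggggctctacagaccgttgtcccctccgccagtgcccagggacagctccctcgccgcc
Aqp3 holds TATAAA with its first base 29 before the start. Aqp8 holds GGAATG 221 bases before the start and TTTATNG 6 bases before it, and the 2 do not overlap. The windows of Aqp9 and Aqp11 hold none of the 4 motifs, which says only that these letters are not there. Of 32851 promoters of the same length, 13.6% hold TATAAA, 37.4% CCAAT, 14.7% GGAATG and 10.9% TTTATNG. A match is a description and not a binding site.

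Aqp3 encodes an aquaglyceroporin of epithelia. It was at 4.31 and not detected on the SCNT Aph+ array, against 9.02, 8.28 and 9.09 in SCNT Aph- embryos. It was at 7.12, 9.48 and 5.62 in fertilized Aph+ embryos and at 8.86, 9.25 and 9.60 in fertilized Aph- embryos. The 3 fertilized Aph+ arrays spread from the level of Aph- embryos on array 2 to a probe that was not detected on array 3 (detection p 0.0288). Aqp3 was not detected in cumulus cells, at 4.69 and 4.29, or in the oocytes, at 4.32. The SCNT Aph+ array was at least 7.12-fold lower than the SCNT Aph- arrays, with a fitted difference of -4.49 ± 1.10 and an adjusted p of 0.0131. A bound of this kind sets the mean of the brighter group against the detection limit of the arrays where the probe was not detected. The call was lost without background correction, at -2.14 with an adjusted p of 0.0505, and with sample type as a block, at -4.12 with an adjusted p of 0.0803. Between fertilized Aph+ and Aph- embryos Aqp3 differed by -1.83 ± 0.78, with an adjusted p of 0.0825. Without fertilized Aph+ array 2 it differed by -2.87 with an adjusted p of 0.00104, without array 3 by -0.94 with an adjusted p of 0.239, and under scaling to the 75th percentile by -2.42 with an adjusted p of 0.00278. The Aph effect on Aqp3 in SCNT minus that in fertilized embryos was -2.66 ± 1.34, with an adjusted p of 0.182. It was called without fertilized Aph+ array 3, at -3.55 with an adjusted p of 0.0240, but was -1.62 without array 2, -1.02 without background correction (adjusted p 0.441) and -0.78 under scaling to the 75th percentile (adjusted p 0.739).

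Aqp8 encodes a channel that passes water and small uncharged solutes. The probe used was at 4.29 on the SCNT Aph+ array and at 4.98, 4.87 and 4.43 in SCNT Aph- embryos. It was at 4.50, 4.22 and 4.27 in fertilized Aph+ embryos and at 7.35, 7.43 and 7.36 in fertilized Aph- embryos. It was at 4.21 and 4.23 in cumulus cells and at 4.27 in the oocytes. Outside the fertilized Aph- embryos it was detected only on SCNT Aph- array 1, at a detection p of 0.00752. A second probe of Aqp8 was detected on the same 3 fertilized Aph- arrays, at 6.72, 7.27 and 6.59, and on no other array, where it stood between 4.18 and 4.86. Aqp8 was at least 2.86-fold lower in fertilized Aph+ than in fertilized Aph- embryos, with a fitted difference of -3.05 ± 0.19 and an adjusted p of 3.82e-06. The second probe differed by -2.58. In SCNT embryos the difference was -0.47 ± 0.27, with an adjusted p of 0.245, and neither SCNT group stood far enough above the detection limit for a fold.

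Aqp9 encodes an aquaglyceroporin that also passes other small solutes. It was at 8.19 on the SCNT Aph+ array and at 9.90, 9.71 and 10.12 in SCNT Aph- embryos. It was at 11.82, 11.80 and 11.95 in fertilized Aph+ embryos and at 10.17, 10.08 and 10.54 in fertilized Aph- embryos. It was at 4.53 and 4.59 in cumulus cells, where it was not detected, and at 10.88 in the oocytes. The fertilized Aph+ arrays were the brightest of the 13 and the SCNT Aph+ array lay below every other embryo or oocyte array. Aqp9 was 3.02-fold higher in fertilized Aph+ than in fertilized Aph- embryos, by 1.59 ± 0.19, with an adjusted p of 1.46e-04. On the SCNT Aph+ array it was 3.29-fold below the SCNT Aph- embryos, by -1.72 ± 0.27, with an adjusted p of 0.00140. The Aph effect in SCNT minus that in fertilized embryos was -3.31 ± 0.33, with an adjusted p of 2.15e-04. On the SCNT Aph+ array, where Aqp9 was low, the cumulus markers stood at the level of cumulus cells, in which Aqp9 was not detected; their part in the difference was not tested.

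Aqp11 encodes an aquaporin of intracellular membranes. The probe used was at 5.43 on the SCNT Aph+ array and at 5.15, 4.59 and 4.56 in SCNT Aph- embryos. It was at 8.34, 8.23 and 8.60 in fertilized Aph+ embryos and at 5.88, 6.10 and 6.31 in fertilized Aph- embryos. It was at 4.82 and 4.72 in cumulus cells and at 4.54 in the oocytes. The fertilized arrays were all detected and did not overlap, whereas elsewhere Aqp11 was detected only on SCNT Aph- array 1 and cumulus cell array 2. Aqp11 was 4.89-fold higher in fertilized Aph+ than in fertilized Aph- embryos, by 2.29 ± 0.22, with an adjusted p of 3.53e-05. In SCNT embryos the difference was 0.66 ± 0.31, with an adjusted p of 0.152, and no fold is given because the SCNT Aph+ array was below detection. The difference between the 2 Aph effects, SCNT minus fertilized, was -1.63 ± 0.38, with an adjusted p of 0.0120. It lost the call with the authors' log2 values, with an adjusted p of 0.123, and under scaling to the 75th percentile, at -0.53 with an adjusted p of 0.678. A second probe of Aqp11 was near the background: it was detected on fertilized Aph+ array 2 and fertilized Aph- array 2 only, and it differed by 0.94 between fertilized Aph+ and Aph- embryos.

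The higher Aqp9 and Aqp11 in fertilized Aph+ embryos are statements relative to the rest of each array. The deposited intensities of Aqp9 were 1096, 1321 and 1274 in fertilized Aph+ embryos and 2161, 1662 and 2723 in fertilized Aph- embryos, and those of Aqp11 were 137, 154 and 148 in fertilized Aph+ embryos and 181, 177 and 228 in fertilized Aph- embryos. Both genes were thus dimmer in Aph+ embryos before normalization and brighter after it. The Actb probe was at 455 to 836 in fertilized Aph+ and 6017 to 9817 in fertilized Aph- embryos. Scaling to the 75th percentile, with no quantile step, kept both genes higher, Aqp9 by 0.92 with an adjusted p of 0.0276 and Aqp11 by 1.39 with an adjusted p of 0.00202. Under that scaling the median of all genes moved to 0.31 for this comparison.

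**Figure D2:**
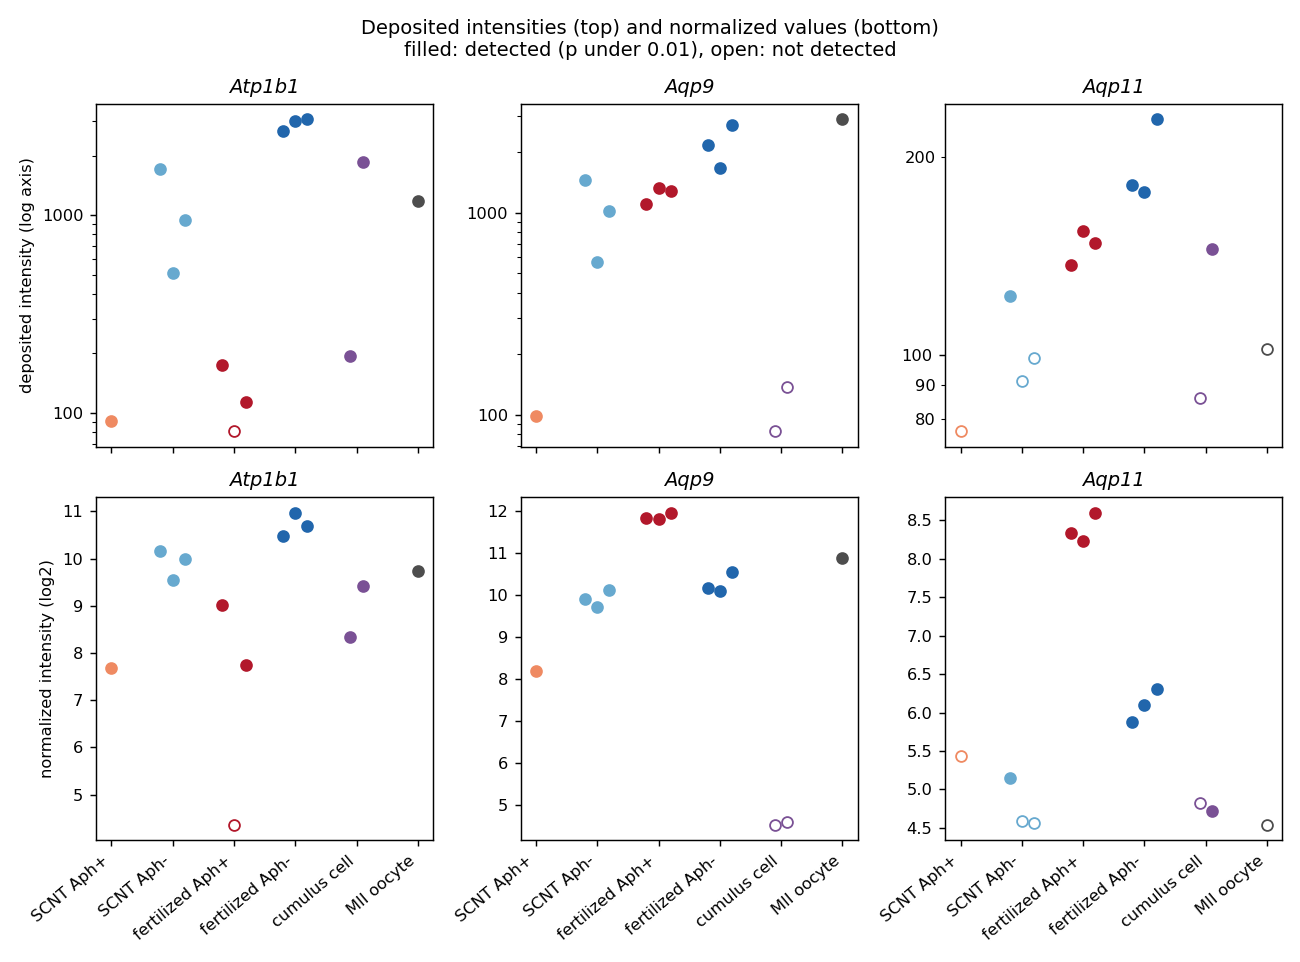
Deposited intensity (top, log axis) and normalized intensity (bottom, log2) of Atp1b1, Aqp9 and Aqp11 on each array, by group, with filled points where the probe was detected and open points where it was not. For Aqp9 the fertilized Aph+ arrays lie below the fertilized Aph- arrays at the top, at 1096 to 1321, and above them at the bottom, at 11.80 to 11.95.

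Whether Aph acted differently in the 2 kinds of embryo was tested as the Aph effect in SCNT minus that in fertilized embryos. It was called for 3 of the 6 genes, higher for Aqp8, at 2.57 ± 0.33 with an adjusted p of 6.93e-04, and lower for Aqp9 and Aqp11, where 13.8% of all genes were higher and 12.4% lower. For Aqp8 the difference was -3.05 in fertilized and -0.47 in SCNT embryos, whose Aph- arrays were near background. The SCNT Aph+ group is 1 array whose spread was taken to be that of the other groups.

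**Figure D3:**
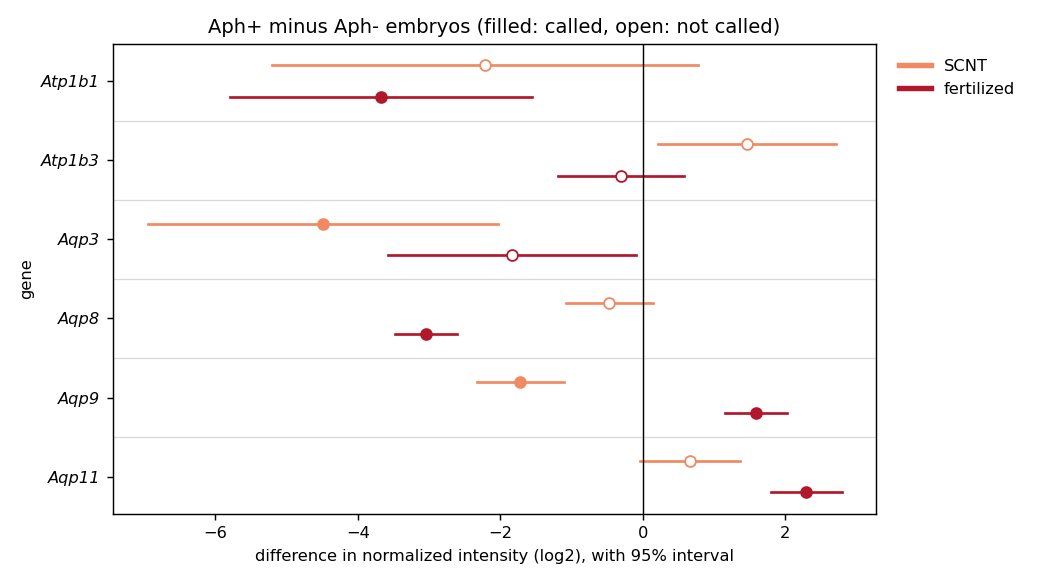
Difference in normalized intensity (log2) between Aph+ and Aph- embryos for the 6 genes, in SCNT and fertilized embryos, with 95% intervals as lines and filled points where the difference was called. Aqp9 lies at -1.72 in SCNT and at 1.59 in fertilized embryos.

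Without Aph, SCNT and fertilized embryos differed in few genes. Aqp8 and Aqp11 were lower in SCNT Aph- than in fertilized Aph- embryos, which are 2 of the 6 genes where 0.398% of all genes were lower. Aqp8 differed by -2.62 ± 0.19 with an adjusted p of 6.88e-04, and the second probe by -2.18. No fold is given, since in SCNT Aph- embryos the first probe was detected on 1 of 3 arrays and the second on none. Aqp11 differed by -1.33 ± 0.22 with an adjusted p of 0.0371, a call that 11 of 15 alternatives lost, among them every fit without 1 of the 3 fertilized Aph- arrays and the fits without SCNT Aph- array 2 or 3. The Aqp11 probe used was detected on 1 of 3 SCNT Aph- arrays, and the second probe differed by -0.30. The other 4 genes differed by -0.82 (Atp1b1), -0.25 (Atp1b3), -0.44 (Aqp3) and -0.35 (Aqp9), with adjusted p from 0.671 to 1.00. Of these, only Atp1b1 had arrays that did not overlap between the 2 groups, and its 95% interval ran from -2.93 to 1.30. Among markers of the primitive endoderm, another blastocyst cell type, 2 of 3 tested were also lower, where 0.398% of all genes were. Sox17 averaged 4.22 in SCNT Aph- and 7.44 in fertilized Aph- embryos, Pdgfra 5.75 and 8.11, and Gata6 10.16 and 10.06. Of the 7 trophectoderm markers, 0 were called. The part of the primitive endoderm in the lower Aqp8 and Aqp11 was not tested.

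Under Aph, the SCNT array was lower than the fertilized arrays in Aqp9, by -3.66 ± 0.27 or 12.7-fold with an adjusted p of 2.57e-05, and in Aqp11, at least 5.36-fold with a fitted difference of -2.96 ± 0.31 and an adjusted p of 1.58e-04. These are 2 of the 6 genes, where 14.4% of all genes were lower. When only these 2 groups were fitted, the adjusted p was 0.0549 for Aqp9 and 0.0550 for Aqp11. Aqp3 differed by -3.10 ± 1.10 with an adjusted p of 0.0574, and Atp1b3 by 1.52 ± 0.56 with an adjusted p of 0.0647. Scaling to the 75th percentile gave -1.44 for Aqp3 (adjusted p 0.442) and 0.80 for Atp1b3 (adjusted p 0.579). Without background correction Aqp3 was at -1.37 (adjusted p 0.187) and Atp1b3 was called at 1.55 (adjusted p 0.0470), and the authors' log2 values called both, at -4.72 and 2.04. Both were called when fertilized Aph+ array 3 was left out, Aqp3 at -3.99 with an adjusted p of 0.00546 and Atp1b3 at 1.00 with an adjusted p of 0.0381. Leaving out fertilized Aph+ array 2 also called both, Aqp3 at -2.06 and Atp1b3 at 1.73, and leaving out array 1 called Atp1b3, at 1.81. Atp1b1 differed by 0.64 between the SCNT and fertilized Aph+ arrays, with an adjusted p of 0.787, and by -0.70 without fertilized Aph+ array 2. Aqp8 was not detected in either group.

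Set against the oocyte array, Aqp3 was higher in both Aph- groups and in fertilized Aph+ embryos. The comparisons share that 1 array. In fertilized Aph+ embryos 2 of the 6 genes were higher, where 18.4% of all genes were higher and 21.9% lower. Aqp11 was at least 6.57-fold higher, with a fitted difference of 3.85 ± 0.31 and an adjusted p of 1.10e-05, and Aqp3 at least 3.32-fold higher, with 3.09 ± 1.10 and an adjusted p of 0.0471. That Aqp3 call was lost under 5 alternatives, such as without fertilized Aph+ array 1, at 3.23 with an adjusted p of 0.0581, and without array 3 the difference was 3.98. Aqp9 was higher by 0.97 with an adjusted p of 0.0159, just short of 2-fold. It was called by 1.00 without array 2 and by 1.02 without background correction, but it turned to -0.58 with an adjusted p of 0.396 under scaling to the 75th percentile, so its direction is not settled. In fertilized Aph- embryos 3 of the 6 genes were higher, where 23.0% of all genes were higher and 20.6% lower. Aqp3 was at least 11.8-fold higher (adjusted p 0.00463), Aqp8 at least 3.26-fold (adjusted p 1.62e-05) and Aqp11 at least 1.34-fold (adjusted p 0.00251). The Aqp11 call was lost under scaling to the 75th percentile, at 1.14 with an adjusted p of 0.0584, and without background correction, where the difference of 0.47 was under 2-fold.

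On the SCNT Aph+ array 1 of the 6 genes, Aqp9, was lower than in the oocytes, 6.46-fold with an adjusted p of 3.28e-04, where 16.4% of all genes were lower and 16.8% higher. Atp1b3 differed by 0.12 between these 2 arrays, but by -2.48 with an adjusted p of 0.0142 under scaling to the 75th percentile. That scaling also called Atp1b3 lower than in the oocytes in SCNT Aph- embryos (-2.50), fertilized Aph+ embryos (-3.28), fertilized Aph- embryos (-2.05) and cumulus cells (-1.91), where the fit on quantile normalized values gave -1.34, -1.39, -1.09 and -0.45. In SCNT Aph- embryos Aqp3 exceeded the oocytes at least 8.72-fold (adjusted p 0.00749), as 1 of the 6 genes, where 23.2% of all genes were higher and 21.0% lower. Aqp9 was lower there by -0.97 with an adjusted p of 0.0149, just short of 2-fold, and by -1.08, which was called, without SCNT Aph- array 3. Scaling to the 75th percentile called it at -2.06 with an adjusted p of 0.00241. The same scaling called Aqp9 lower in fertilized Aph- embryos than in the oocytes, at -1.50 with an adjusted p of 0.0183. There the fit on quantile normalized values gave -0.62 with an adjusted p of 0.0932. Atp1b1 was not called against the oocyte in any group, with differences from -2.70 in fertilized Aph+ to 0.97 in fertilized Aph- embryos. The call appeared, however, for fertilized Aph+ embryos without array 1, at -3.69 with an adjusted p of 0.0220, and under scaling to the 75th percentile, at -3.82 with an adjusted p of 5.95e-04, as it did for the SCNT Aph+ array under that scaling, at -4.05 with an adjusted p of 0.00335. Atp1b3 in fertilized Aph+ embryos was called lower without array 1, at -1.69, and without array 2, at -1.61.

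**Figure D4:**
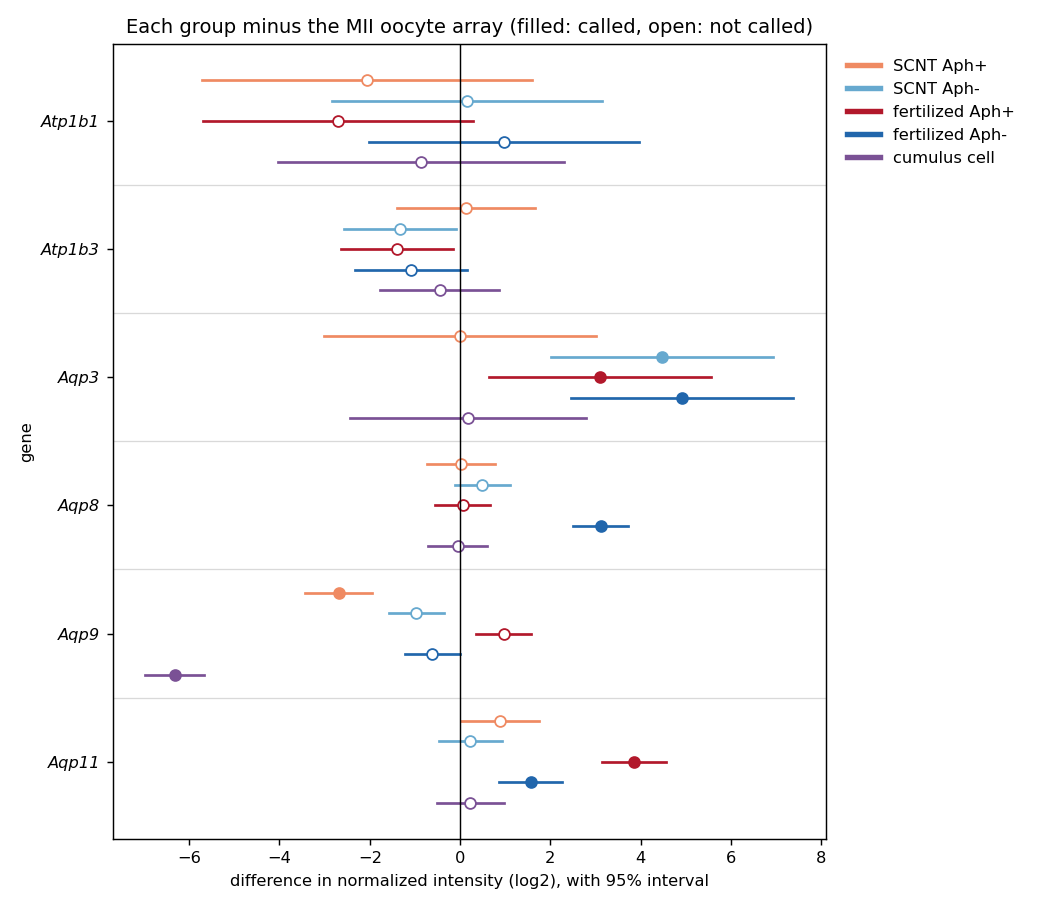
Difference in normalized intensity (log2) between each group and the MII oocyte array for the 6 genes, with 95% intervals as lines and filled points where the difference was called (adjusted p under 0.05 and at least 2-fold). Aqp9 is at -6.32 in cumulus cells, and Aqp11 is at 3.85 in fertilized Aph+ embryos.

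Cumulus cells, the source of the transplanted nuclei, differed from the oocytes in Aqp9, which was at least 52.5-fold lower with an adjusted p of 1.65e-06 and was the 1 gene of the 6 called, where 19.6% of all genes were lower. SCNT Aph- embryos were higher than cumulus cells in 2 of the 6 genes, Aqp9 by at least 26.7-fold (adjusted p 4.25e-07) and Aqp3 by at least 12.4-fold (adjusted p 0.00400), where 17.5% of all genes were higher. The SCNT Aph+ array was higher than cumulus cells in 1 of the 6 genes, Aqp9, by at least 8.13-fold with an adjusted p of 8.53e-05, where 4.39% of all genes were higher. When only these 2 groups were fitted the adjusted p was 0.137. Aqp8, at 0.54 between SCNT Aph- embryos and cumulus cells, was called without SCNT Aph- array 3, at 0.71. Both pump subunit genes were detected in cumulus cells, on both arrays.

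In the order of group means, neighbouring groups often did not differ beyond their spread. For Atp1b1 and Atp1b3 no neighbours differed, with adjusted p from 0.321 to 1.00. For Aqp3 the only neighbours past the threshold were fertilized Aph+ embryos and cumulus cells, the highest group without detection (adjusted p 0.0200). For Aqp8 fertilized Aph- embryos stood above SCNT Aph- embryos, and neighbours among the 5 lower groups did not differ (adjusted p from 0.108 to 1.00). For Aqp9 the order was fertilized Aph+ embryos, oocytes, fertilized Aph-, SCNT Aph-, SCNT Aph+ and cumulus cells, and the neighbours called were SCNT Aph- with SCNT Aph+ embryos (adjusted p 0.00140) and SCNT Aph+ embryos with cumulus cells (adjusted p 8.53e-05). Fertilized Aph+ embryos and oocytes were within 2-fold in Aqp9, and their order turned under scaling to the 75th percentile. For Aqp11 fertilized Aph+ stood above fertilized Aph- embryos, and neighbours below did not differ (adjusted p from 0.146 to 0.998).

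The 6 genes did not share 1 pattern over the arrays. Pearson's r between pairs of them over the 13 arrays, which share groups and normalization, ran from -0.51 for Atp1b1 with Aqp11 to 0.60 for Aqp3 with Aqp8 and for Aqp9 with Aqp11. The genes most like Atp1b1 over the 13 arrays were Lcmt1 (r 0.963), Lmtk2, Mipep, BC052040 and Mfsd1. Those most like Atp1b3 were Ipmk (r 0.953), C1galt1c1, Eif1b, Tulp4 and Cyth3. Those most like Aqp3 were Letm1 (r 0.971), Cyp2s1, Cct6b, L1td1 and Epop, and those most like Aqp8 were Dkk1 (r 0.974), Magea5, Eif2s3y, Slc46a3 and Osr2. Those most like Aqp9 were Psme3ip1 (r 0.964), Mybl2, Castor1, Kif2c and Incenp, and those most like Aqp11 were Luc7l (r 0.968), Pank3, 2610524H06Rik, Rprd1a and Smc1b. As the best 5 of 9787 genes, such r are high by selection.

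Of 13 other Na/K-ATPase subunit and FXYD genes, 9 had a probe and 6 were tested. Between fertilized Aph+ and Aph- embryos 2 were higher and 3 lower, where 19.1% of all genes were higher and 25.1% lower. Between SCNT Aph+ and Aph- embryos 1 was higher and 2 lower, where 13.7% of all genes were higher and 14.7% lower. Fxyd6, a pump regulator, was at 4.64 and not detected on the SCNT Aph+ array, against 10.70, 9.64 and 9.94 in SCNT Aph- embryos. It was at 6.68, 4.28 and 4.71 in fertilized Aph+ embryos, and at 9.77, 9.76 and 9.47 in fertilized Aph- embryos. Fxyd6 was at least 17.5-fold lower under Aph in SCNT embryos (adjusted p 9.02e-04). In fertilized embryos it was also lower (adjusted p 1.98e-04), with the probe detected on 1 of 3 Aph+ arrays. Fxyd4, another regulator, was not detected on any Aph+ array and was at 6.69 to 7.57 in SCNT Aph- and 6.82 to 7.54 in fertilized Aph- embryos. It was at least 2.33-fold lower under Aph in SCNT embryos (adjusted p 4.58e-04) and at least 2.49-fold lower in fertilized embryos (adjusted p 3.68e-05), and the first of these calls was lost under scaling to the 75th percentile (adjusted p 0.0534). Both Fxyd genes were higher in the 2 Aph- groups than in the oocytes.

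Atp1b2, the beta 2 subunit known from glia, went the other way. It was at 7.09 on the SCNT Aph+ array and not detected in SCNT Aph- embryos, at 4.21, 4.28 and 4.24. It was at 7.13, 7.57 and 5.98 in fertilized Aph+ embryos, the last not detected, and not detected in fertilized Aph- embryos, at 4.29, 4.33 and 4.35. Atp1b2 was at least 4.04-fold higher under Aph in SCNT embryos (adjusted p 0.00317) and at least 4.33-fold higher in fertilized embryos (adjusted p 4.19e-04). It was brightest in cumulus cells, at 9.23 and 10.01, and not detected in the oocytes, at 4.79. Cumulus markers summed to 5425 on the SCNT Aph+ array, and to 351 to 993 in fertilized Aph+ embryos. That range holds the 814 of the oocytes. Markers of blood, 6 tested, summed to 547 to 1133 for fertilized Aph+, to 1204 for SCNT Aph+ and to 1522 to 1929 for cumulus cells. Their sum was 100 in the oocytes, 20.6 to 34.9 for fertilized Aph- and 45.6 to 66.9 for SCNT Aph-. After fertilization 2 of the 6, Cd52 and Lyz2, were called higher with Aph and 0 lower. The part of either marker list in the Atp1b2 level was not tested. Single markers behind the cumulus sum moved both ways. After fertilization Inhba averaged 6.56 with Aph and 4.37 without it, and was called higher (adjusted p 0.0380). Its oocyte level was 7.37. Runx1 and Col4a1 were called lower with Aph, by -2.12 and -1.57.

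**Figure D5:**
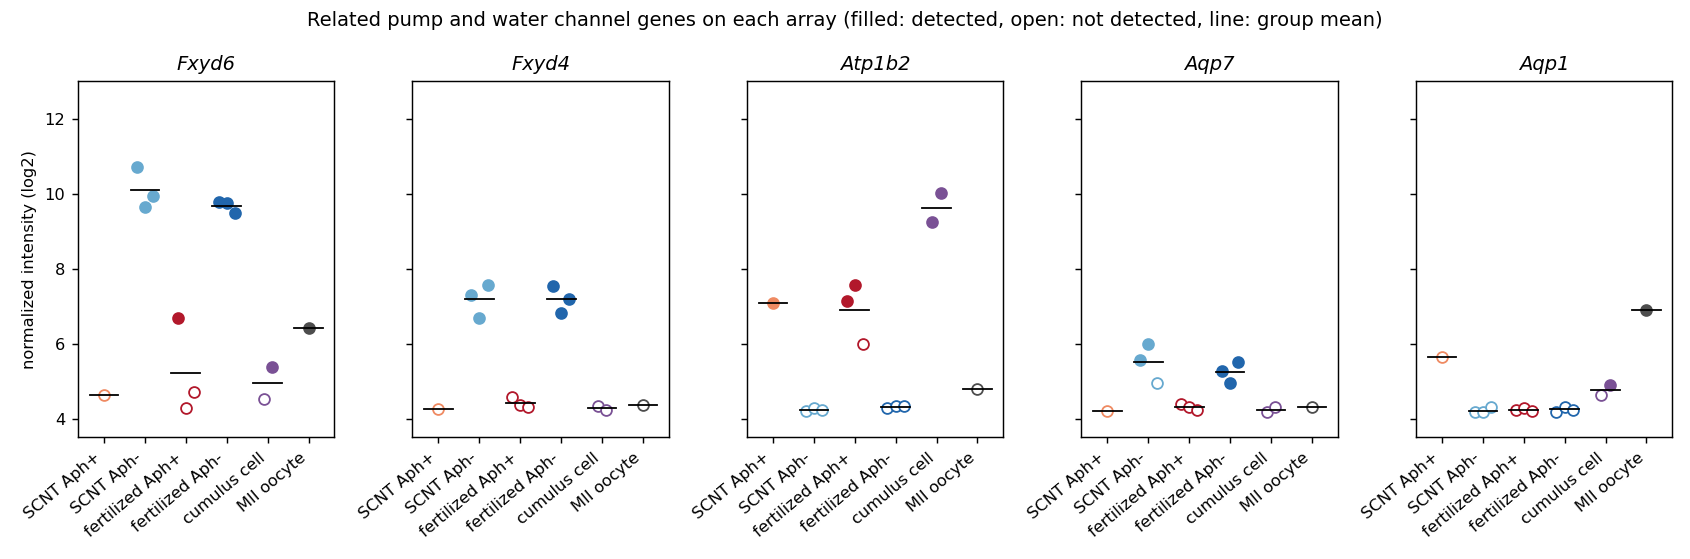
Normalized intensity (log2) of Fxyd6, Fxyd4, Atp1b2, Aqp7 and Aqp1 on each of the 13 arrays, by group, with filled points where the probe was detected, open points where it was not and a line at the group mean. Fxyd6 and Fxyd4 are bright in both Aph- groups, and Atp1b2 is brightest in cumulus cells, at 9.23 and 10.01.

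All 8 other aquaporins on the list had a probe and 2 were tested, Aqp1 and Aqp7. Aqp1, a water channel of vessels and kidney tubules, was at 6.89 in the oocytes and not detected in any embryo group. It was at least 2.04-fold lower in fertilized Aph+ and at least 4.33-fold lower in fertilized Aph- embryos than in the oocytes (adjusted p 1.58e-05 and 1.52e-05). Aqp7, an aquaglyceroporin, was detected at low levels, 4.95 to 6.0 in SCNT Aph- embryos, where it was detected on 2 of 3 arrays, and 4.94 to 5.51 in fertilized Aph- embryos. It was not detected on any Aph+ array, but the detection limit there lay at 5.67 to 6.15, so that no fold can be given. Its difference under Aph was called lower in both kinds of embryo and turned above 0 under scaling to the 75th percentile.

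Other genes of a transporting epithelium that were called under Aph, among carriers, junctions and transcription factors, were all lower in Aph+ embryos. Of 11 tested carriers of sodium, chloride and glucose, 5 were lower in SCNT Aph+ than in SCNT Aph- embryos and 5 in fertilized Aph+ than in fertilized Aph- embryos, with medians of -0.85 and -1.38. Over all genes 14.7% were lower in SCNT and 25.1% in fertilized embryos under Aph, with medians of -0.10 and -0.03. Slc9a3r1, a scaffold of apical transporters, was lower by -3.38 ± 0.49 (adjusted p 8.32e-04) in SCNT and by -3.39 ± 0.35 (adjusted p 5.07e-05) in fertilized embryos. Atp12a, a proton and potassium pump related to the Na/K-ATPase, was at least 3.28-fold lower in fertilized Aph+ embryos (adjusted p 1.74e-05), and the anion exchanger Slc4a2 at least 2.52-fold (adjusted p 2.64e-05). The glucose carrier Slc2a3 was lower under Aph in SCNT embryos by -4.50 ± 0.38 (adjusted p 4.91e-05). Slc2a3 was still higher in fertilized Aph+ embryos than in the oocytes, by 4.58 ± 0.38 (adjusted p 1.29e-05). Cftr, a chloride channel, was at 8.03 in the oocytes and not detected in any of the 4 embryo groups.

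Of 15 tested junction genes, 6 were lower under Aph in SCNT and 8 in fertilized embryos, with medians of -0.45 and -1.20. Over all genes 14.7% were lower in SCNT and 25.1% in fertilized embryos, with medians of -0.10 and -0.03. Cldn4, a claudin of tight junctions, was at least 25.3-fold lower on the SCNT Aph+ array (adjusted p 0.00172) and was lower in fertilized embryos (adjusted p 7.01e-05), where it was detected on 1 of 3 Aph+ arrays. Under Aph, SCNT embryos had at least 11.5-fold lower Cldn6 (adjusted p 2.09e-04). In fertilized embryos Cldn6 averaged 8.62 with Aph and 8.77 without it. Against the oocytes, Cldn6 in fertilized Aph+ embryos was at least 7.72-fold higher (adjusted p 2.45e-04). Pkp2, a desmosomal plaque protein, was at least 10.5-fold lower in fertilized Aph+ than in fertilized Aph- embryos (adjusted p 1.18e-06). Of 12 tested transcription factors of the trophectoderm, 8 were lower under Aph in SCNT and 11 in fertilized embryos, with medians of -4.10 and -3.01. The shares and medians over all genes are those given with the junction genes. Cdx2, which specifies the trophectoderm, was lower by -4.77 ± 0.71 (adjusted p 9.49e-04) in SCNT and in fertilized embryos (adjusted p 1.44e-05), where it was detected on 1 of 3 Aph+ arrays, and Eomes was at least 11.2-fold lower in fertilized Aph+ embryos (adjusted p 3.00e-06).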

How the data were processed

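RNA of 13 samples was measured on Illumina mouse BeadChips. The authors deposited linear probe intensities, summarised in BeadStudio 3.2 without normalization, with a detection p-value per probe. The authors also deposited log2 values, background-adjusted and quantile normalized, with each column's median at 1.35, used as an alternative. The submitters' processing notes name lumi and RMA without version.

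Intensities were normalized with neqc of limma 3.58.1 (R 4.3.3, offset 16). Probes entered with a symbol in GEO's platform annotation and detection on 1 array or more, and for several probes of a gene the brightest was used. Symbols were lacking for 1719 probes. A model of 6 groups with 7 residual degrees of freedom and eBayes gave differences (± SE) and p-values, adjusted by Benjamini-Hochberg over 9787 genes in each of 12 comparisons. The function was tested on simulated data. The genes described and the gene lists were chosen with earlier results of these data known. Named were these 6 genes, Actb, up to 3 called genes of largest difference per list and comparison, and the 5 genes most correlated with each of the 6. Alternatives were the authors' log2 values, no background correction, 75th percentile scaling, other detection filters, the mean of probes, each array left out, only the groups compared, sample type as a block, and trend with robust eBayes. The number of arrays limits the precision.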

Additional observations from a re-analysis of the deposited data

Results flagged for a closer look

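The response to Aph differed between SCNT and fertilized embryos for 3 of the 6 genes by the test of the difference itself, which rests on 1 SCNT Aph+ array. Over all genes 13.8% were higher and 12.4% lower in this test. For Aqp8 the Aph effect in SCNT minus that in fertilized embryos was 2.57, with Aqp8 detected on 1 of 3 SCNT Aph- arrays. For Aqp9 it was -3.31, with the SCNT Aph+ array below the 3 SCNT Aph- arrays and the 3 fertilized Aph+ arrays above the 3 fertilized Aph- arrays. For Aqp11 it was -1.63, a call that was lost with the authors' log2 values (adjusted p 0.123) and under scaling to the 75th percentile, at -0.53 (adjusted p 0.678).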

How the results depend on the processing

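No paired analysis was possible because every embryo array is labelled as a first replicate. Sample type served as a block instead. Of the 6 genes called, the count for SCNT Aph- against fertilized Aph- embryos was 2 and became 1 with the authors' log2 values, no background correction, 75th percentile scaling, the mean of probes, sample type as a block, or trend with robust eBayes. For SCNT Aph+ against fertilized Aph+ it was 2, with 4 for the authors' values and 0 when only the groups compared were fitted, and for SCNT Aph+ against SCNT Aph- it was 2, with 1 without background correction or with the block and 4 with only these groups. Against the oocyte, 75th percentile scaling gave 3 for SCNT Aph- (otherwise 1), 3 for SCNT Aph+ (otherwise 1) and 2 for cumulus cells (otherwise 1). Fitting only the groups compared gave 2 for SCNT Aph- against oocytes, 1 for fertilized Aph+ against oocytes (otherwise 2, and 1 with no detection filter) and 0 for SCNT Aph+ against cumulus cells (otherwise 1). SCNT Aph+ against the oocyte could not be fitted alone, having 1 array each.

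With each array left out, the counts ran from 4 to 5 for Aph in fertilized embryos, 2 to 2 in SCNT embryos, 3 to 5 for the difference of the Aph effects, 1 to 2 for SCNT Aph- against fertilized Aph-, 3 to 4 for SCNT Aph+ against fertilized Aph+, 2 to 4 for fertilized Aph+, 3 to 3 for fertilized Aph- and 1 to 2 for SCNT Aph- against oocytes, 1 to 1 for cumulus cells against oocytes, 2 to 3 for SCNT Aph- and 1 to 1 for SCNT Aph+ against cumulus cells. Under 75th percentile scaling Atp1b3 turned to -2.48 and Sox2 to 0.04 between SCNT Aph+ and oocytes, and Aqp7 turned to 0.25 under Aph in fertilized and 0.03 in SCNT embryos. The cause was not tested.

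Over all genes, 75th percentile scaling called 6848 genes, against 4324, for Aph in fertilized embryos (57.2% higher, against 43.2%), 934 against 2563 for the difference of the Aph effects (27.9% higher, against 52.6%), 120 against 55 for SCNT Aph- against fertilized Aph- (40.8%, against 29.1%), 1143 against 3063 for SCNT Aph+ against fertilized Aph+ (20.7%, against 54.0%) and 1104 against 684 for SCNT Aph+ against cumulus cells (17.5%, against 62.9%). The share higher also moved for Aph in SCNT embryos (25.5%, against 48.1%) and, against oocytes, for SCNT Aph+ (8.99%, against 50.6%) and fertilized Aph+ (32.9%, against 45.6%). In place of 55 genes, 234 were called with only these groups, 11 with the block and 12 to 21 without 1 array other than SCNT Aph- array 1. With only the groups compared, 0 were called for SCNT Aph+ against fertilized Aph+ and against cumulus cells, and 1733, against 3939, for fertilized Aph+ against oocytes; with no filter, 1414 for SCNT Aph+ against cumulus cells. Detection limits of 5.67 to 6.15 on the Aph+ arrays, against 4.75 to 5.26 on the Aph- arrays, limit what could be seen.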
